A study of Homo sapiens with 6 samples.

Results

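The G2/M cyclins, the kinase CDK1 and its direct regulators were followed after a pulse of cisplatin, which forms platinum crosslinks in DNA, in the lung adenocarcinoma cell line A549. The set was named as 10 genes, CCNA2, CCNB1, CCNB2, CCNF, CDK1, CDC25B, CDC25C, CKS1B, CKS2 and WEE1, and its members were the probe sets that the platform's probe table pairs with 1 of these symbols alone. That gave 9 of the 8746 probe sets that are not array controls, for 8 of the 10 genes: CCNA2 had 2 probe sets, and CCNB1 and WEE1 had none and are not analysed here. All 9 passed the filter on dim probe sets, which left 6559 for testing. The genes were chosen by their role, with the log2 differences of cisplatin against control in these arrays already known, so those differences are given here as a description.

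Total RNA was measured on 6 oligonucleotide arrays, 3 of cisplatin-treated and 3 of control cells. The cisplatin cultures spent 1 hour in medium with 50 µM of the drug and the control cultures 1 hour in drug-free growth medium, and all were washed and kept in drug-free medium for 10 hours. The submitters describe 3 independent experiments. All arrays are of the same cell line, and synchronisation of the cells or a measurement of their cycle is not given in the sources used here.

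Median intensity per array ran from 59.3 to 67.2 on the cisplatin arrays and from 57.2 to 59.4 on the controls. The ratio of the 3′ to the 5′ ACTB control probe set, which rises as RNA degrades, was 2.67 to 3.67 on cisplatin arrays and 2.20 to 2.98 on controls, and its part in the results was not tested. Of 11 markers of the line and of epithelium 10 were on the array, with summed intensities of 25298 to 27390 in cisplatin cells and 25159 to 29226 in control cells. KRT18, NQO1, AKR1C1, AKR1B10 and ALDH1A1 were among them, while EPCAM (32.7 in cisplatin and 33.3 in control cells) and CDH1 (37.2 and 37.3) were dim. CDKN2A, which A549 cells have lost, averaged 25.3 in cisplatin and 16.3 in control cells and was below the filter. Of 8 markers of blood, endothelial and stromal cells 6 were on the array, with sums of 226 to 254 in cisplatin cells and 212 to 243 in control cells, and VWF, PTPRC and COL3A1 were below the filter. The other 3 were above it, COL1A1 with means of 95.5 in cisplatin and 102 in control cells, PECAM1 with 69.6 and 61.2 and CD3E with 46.0 and 39.7, and their part in the results was not tested.

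CDK1 is the kinase that drives cells into mitosis. It needs a cyclin partner, cyclin A or B, whose messenger RNA and protein build up through S and G2 phase and whose protein is destroyed at mitosis. WEE1 and its relative PKMYT1 hold the kinase inactive by phosphorylating it, the CDC25 phosphatases remove those phosphates, and the small CKS proteins help the kinase complex to bind its substrates. Many of these genes are repressed in resting cells and induced in G2 through 2 short promoter elements, the CHR (cell cycle genes homology region), bound by the DREAM and B-MYB-MuvB complexes, and CCAAT boxes, bound by NF-Y. In these bulk cultures fewer cells in G2 or mitosis and less RNA per cell cannot be told apart.

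The promoters are shown because most of the measured members hold a CHR together with a CCAAT box. Promoter sequences were not used to choose the genes, but both elements are already known from many of them. Their presence here is therefore a description and not an independent finding. RefSeq windows of 300 bases, 250 before and 50 after a transcript start on GRCh38.p14, were found for all 8 measured genes, 15 windows in all. They were searched on both strands for the CHR letters TTTGAA and for CCAAT, which do not overlap in any window shown. The 110 bases just before the start are given 5′ to 3′ on the strand of the gene, with both boxes in capitals, TTCAAA and ATTGG being their reverse complements.
CCNF: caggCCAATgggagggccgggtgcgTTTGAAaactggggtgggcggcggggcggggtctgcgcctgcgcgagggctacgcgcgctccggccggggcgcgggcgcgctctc
CCNB2: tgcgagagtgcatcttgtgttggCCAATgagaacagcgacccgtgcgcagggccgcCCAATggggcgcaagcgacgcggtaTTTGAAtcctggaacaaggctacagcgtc
CCNA2: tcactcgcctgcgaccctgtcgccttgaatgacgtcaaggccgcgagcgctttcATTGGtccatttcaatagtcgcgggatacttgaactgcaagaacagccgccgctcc
CDK1: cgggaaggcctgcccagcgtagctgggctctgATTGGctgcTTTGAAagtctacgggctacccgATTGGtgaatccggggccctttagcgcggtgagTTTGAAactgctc
CKS2: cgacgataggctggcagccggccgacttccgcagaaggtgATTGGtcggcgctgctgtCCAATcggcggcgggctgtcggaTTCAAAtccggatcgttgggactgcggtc
CKS1B: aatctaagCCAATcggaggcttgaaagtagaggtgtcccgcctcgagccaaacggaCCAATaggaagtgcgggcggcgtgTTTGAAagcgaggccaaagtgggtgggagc
CDC25C: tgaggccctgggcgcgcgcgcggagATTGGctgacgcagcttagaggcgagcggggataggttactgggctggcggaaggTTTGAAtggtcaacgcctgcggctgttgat
The windows lie at chr16:2429337-2429446 (plus strand) for CCNF, chr15:59105036-59105145 (plus) for CCNB2, chr4:121823884-121823993 (minus) for CCNA2, chr10:60778368-60778477 (plus) for CDK1, chr9:89311085-89311194 (plus) for CKS2, chr1:154974571-154974680 (plus) for CKS1B and chr5:138331805-138331914 (minus) for CDC25C. All are immediately upstream of an annotated transcript start. For CDK1 and CDC25C, which have 2 and 4 windows, the one shown was picked for its boxes.

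At least 1 window held both boxes in 6 of the 8 genes, where 6.33% of the 4790 tested genes with a window had both. In CCNB2, CKS1B and CKS2 the pair nearest the start was placed nearly alike, with a CCAAT box starting at -54, -54 and -52 and a CHR at -29, -30 and -29. The CHR of CKS2 was on the opposite strand, and the other CCAAT boxes of these genes differed in number and place. CDC25C had its CHR at -30 and its CCAAT box farther away at -85. In CCNF the pair sat farther upstream, at -106 and -85, and in CDK1 a CCAAT box at -46 was followed by a CHR at -13. A CCAAT box that started 20 to 35 bases before a CHR, a spacing chosen after these sequences were seen, was found in 5 of the 8 genes, against 0.710% of the tested genes with a window and 0.478% of all 35116 windows. The exact letters TTTGAA were not found in the window of CCNA2 or in the 4 windows of CDC25B. Variants of the CHR, such as the cttgaa seen in the CCNA2 sequence, were not searched for. Their absence from the counts thus does not show that these genes lack a CHR.

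**Figure D1:**
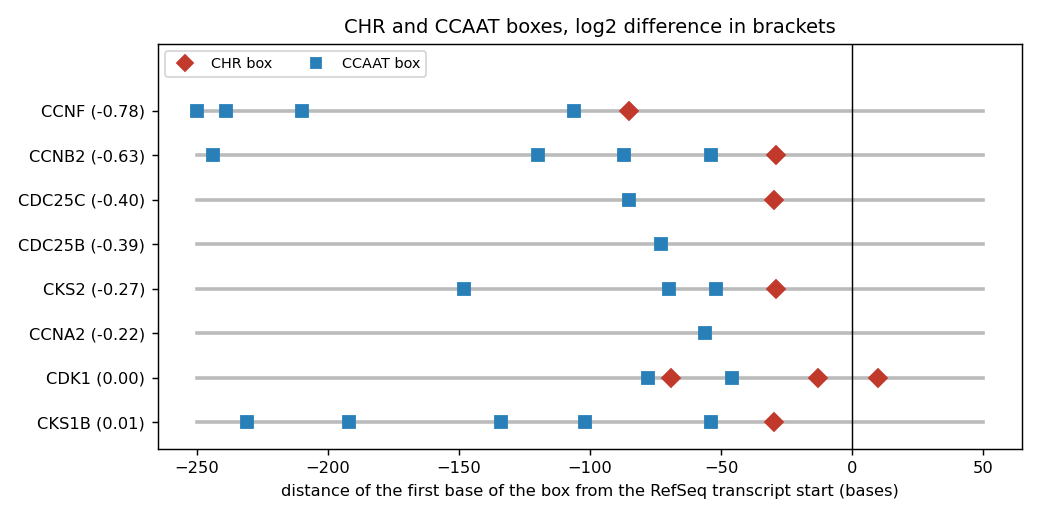
Positions of CHR boxes (diamonds) and CCAAT boxes (squares) in 1 RefSeq window per gene, in bases from the transcript start (vertical line), with genes ordered by their log2 difference, cisplatin minus control, in brackets. CCNB2 (-0.63), CKS2 (-0.27) and CKS1B (0.01) have a CHR and a CCAAT box at nearly the same positions near the start, and their other CCAAT boxes differ. Only the letters TTTGAA, on either strand, were counted as a CHR. Strands are not drawn, and a link between layout and log2 difference was not tested.

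The comparison of cisplatin-treated with control cells asks which transcripts differ 10 hours after the pulse. Over the measured members the cyclins F and B2 differed most, the CDC25 phosphatases and CKS2 less, and CDK1 and CKS1B hardly at all. The median log2 difference over the 8 genes, each by its brightest probe set, was -0.33, beside 0.04 over all 6559 tested probe sets. Of the genes 6 were lower after cisplatin, and 39.5% of all tested probe sets were lower. With limma and Benjamini-Hochberg adjustment over all tested probe sets 1 of the 9 member probe sets passed at 0.05, CCNB2, on the lower side, where 0.0762% of all tested probe sets passed on that side. All 3 cisplatin arrays lay below all 3 controls in 6 of the 9, and in 3.57% of all tested probe sets. Because this contrast was known when the genes were picked, nothing is read from these counts.

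**Figure D2:**
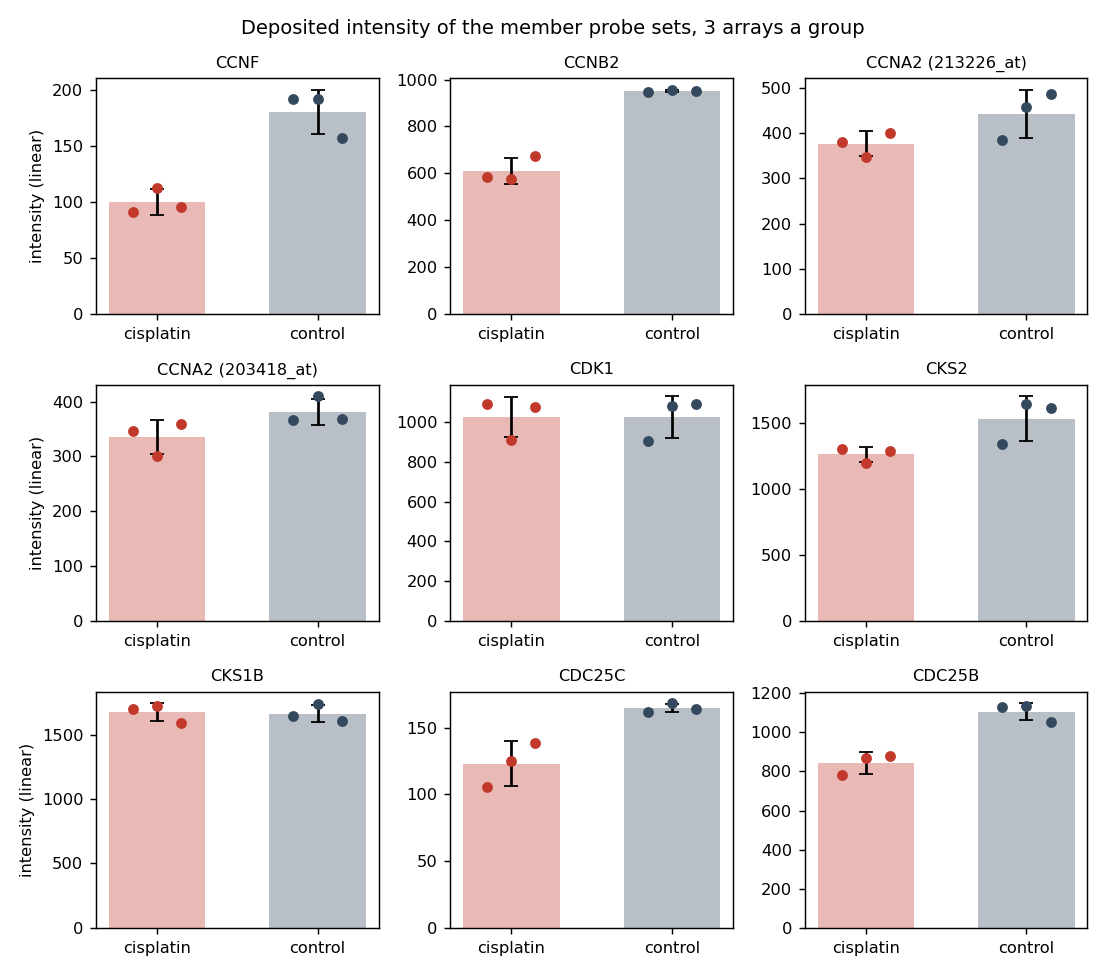
Deposited linear intensity of the 9 member probe sets on each array (points), with group means (bars) and SD (whiskers), n = 3 each. The groups are apart in CCNF, CCNB2, CDC25C and CDC25B, lie close in CKS2 and CCNA2, and coincide in CDK1 and CKS1B.

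CCNF encodes cyclin F, which binds no CDK of its own and serves as the substrate-recognition subunit of an SCF ubiquitin ligase in G2. Its probe set read 91.4, 113 and 95.4 on cisplatin arrays 1 to 3, against 192, 191 and 157 on control arrays 1 to 3. The highest cisplatin array was well below the lowest control. The means were 99.8 ± 11.4 in cisplatin cells and 180.1 ± 19.8 in control cells (SD, n = 3 each), the first being 55.4% of the second. On the log2 scale, after adding an offset of 11.8 to every intensity, the difference was -0.78 (SE 0.14). The intensities are low, and with 5 times the offset the log2 difference was -0.59.

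CCNB2 encodes cyclin B2, a partner of CDK1 at entry into mitosis. It read 583, 577 and 675 after cisplatin and 945, 957 and 949 in control cells. The control arrays were almost level and the cisplatin arrays all lower, with the third above the other 2. The means were 612 ± 54.6 in cisplatin and 950.4 ± 5.75 in control cells, or 64.4% of control, and the log2 difference was -0.63 (SE 0.10, 95% interval -0.84 to -0.41). The control spread, a coefficient of variation of 0.605% beside 8.93% in cisplatin cells, is smaller than that of the other member probe sets, and the call of CCNB2 depended on the arrays and on how the spread was modelled. CCNB2 still passed without control 1 (adjusted p = 0.0424 in limma) and did not pass without any of the other 5 arrays, one at a time (adjusted p of 0.0795 to 0.195).

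CCNA2 encodes cyclin A2, which acts with CDK2 in S phase and with CDK1 in G2, and its 2 probe sets gave like values. The brighter read 381, 348 and 402 after cisplatin against 384, 459 and 487 in control cells. The groups overlapped on it, because control 1 lay below cisplatin 3. The other read 346, 301 and 360.0 after cisplatin against 367, 409 and 368 in control cells, and here the groups did not overlap, though the nearest arrays were close. The log2 differences were -0.22 (SE 0.12) and -0.18 (SE 0.12), and they differed by 0.04, less than the spread of the difference between the probe sets over the control arrays (SD 0.17). The 95% intervals, -0.50 to 0.05 and -0.44 to 0.08, both include 0. Without cisplatin 2 the second probe set differed by -0.11.

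CDK1 itself was level. It read 1088, 909 and 1077 on the cisplatin arrays and 904, 1078 and 1089 on the controls. In each group 1 array, cisplatin 2 and control 1, lay below the other 2. These were also the arrays with the lowest ACTB ratio of their groups, at 2.67 and 2.20, and a link was not tested. The means were 1025 ± 100.2 in cisplatin and 1023 ± 104 in control cells, with a log2 difference of 0.0021 (SE 0.11, 95% interval -0.24 to 0.25). Its sign changed with the setting, to -0.07 with arrays centred on their median, while quantile normalization gave 0.02. The interval includes a decrease as large as the value of CCNA2, so a small difference in CDK1 could not be detected with 3 arrays a group.

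The CKS proteins, small subunits that bind cyclin-dependent kinases, are encoded by a pair of paralogs with unequal differences. CKS2 read 1300.4, 1197 and 1285 after cisplatin and 1341, 1646 and 1611 in control cells. The cisplatin arrays were all lower, but control 1 was near them. The means were 1261 ± 55.9 and 1533 ± 167 in cisplatin and control cells, and the log2 difference was -0.27 (SE 0.10). CKS1B, which also serves the SKP2 ubiquitin ligase in the destruction of CDKN1B, read 1700.3, 1724 and 1591 after cisplatin and 1643, 1736 and 1604 in control cells. These groups overlapped throughout, with a log2 difference of 0.01 (SE 0.07, 95% interval -0.16 to 0.17) that was -0.06 with arrays centred on their median and 0.02 with quantile normalization.

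The CDC25 phosphatases among the members, CDC25B and CDC25C, activate CDK1 by removing its inhibitory phosphates, and both were lower after cisplatin. Neither passed (adjusted p = 0.245 and 0.733 in limma), nor did they under any of the 17 alternative fits. CDC25A, which is outside the members, differed by -0.16 on the log2 scale, with overlapping groups. CDC25B, which acts early at the G2/M transition, read 779.6, 870.1 and 881 after cisplatin and 1128, 1133 and 1055 in control cells, and the groups were well apart. Its means were 844 ± 55.7 in cisplatin and 1105 ± 43.4 in control cells, or 76.3% of control, with a log2 difference of -0.39 (SE 0.09). CDC25C, held back by 14-3-3 proteins after DNA damage, read 105, 125 and 138 after cisplatin and 162, 168 and 164 in control cells, and again no cisplatin array reached a control. The log2 difference was -0.40 (SE 0.14), and the spread was wider after cisplatin (SD 16.6) than in control cells (SD 3.24).

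**Figure D3:**
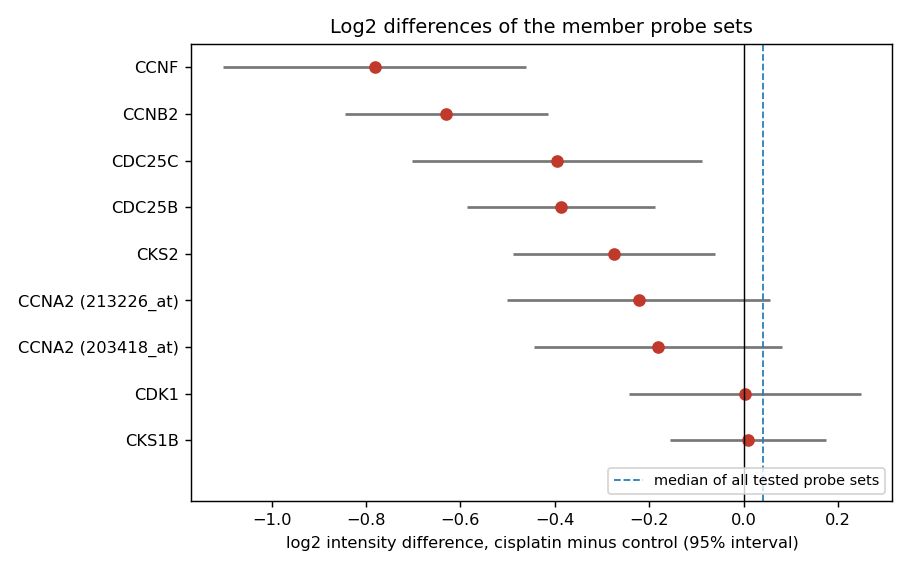
Log2 intensity difference, cisplatin minus control, of each member probe set from limma (points) with its 95% interval (lines). The dashed line marks the median of all tested probe sets, 0.04, and the members run from -0.78 for CCNF to 0.01 for CKS1B.

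Ratios between members within an array do not move with the scaling of the arrays, so they show how unevenly the genes differed. The log2 ratio of CCNB2 over CDK1 was -0.89, -0.65 and -0.67 on the cisplatin arrays and 0.06, -0.17 and -0.20 on the controls, a difference of -0.63 with no overlap. With CDK1 level between the groups, this difference repeats that of CCNB2 itself. For CCNA2 over CDK1 the difference was -0.22, for CDC25B over CDK1 -0.39 and for CCNB2 over CCNA2 -0.41, and none of these groups overlapped. These 4 pairs were picked after the values were seen, since pairs planned with CCNB1 and WEE1 could not be formed. The ratios of CCNA2 and CDC25B over CDK1 likewise repeat the differences of those genes. No share over other ratios was computed, and nothing is read from the lack of overlap. Of the planned pairs, CKS2 over CKS1B differed by -0.28 without overlap, although control 1 at -0.29 was close to cisplatin 3 at -0.31. CCNF over CCNA2 differed by -0.56, with control 3 at -1.56 below cisplatin 2 at -1.53. CDC25C over CDC25B differed by -0.01, with an SD of 0.09 over the cisplatin and 0.06 over the control arrays, so the phosphatases kept their ratio within the spread of the arrays.

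**Figure D4:**
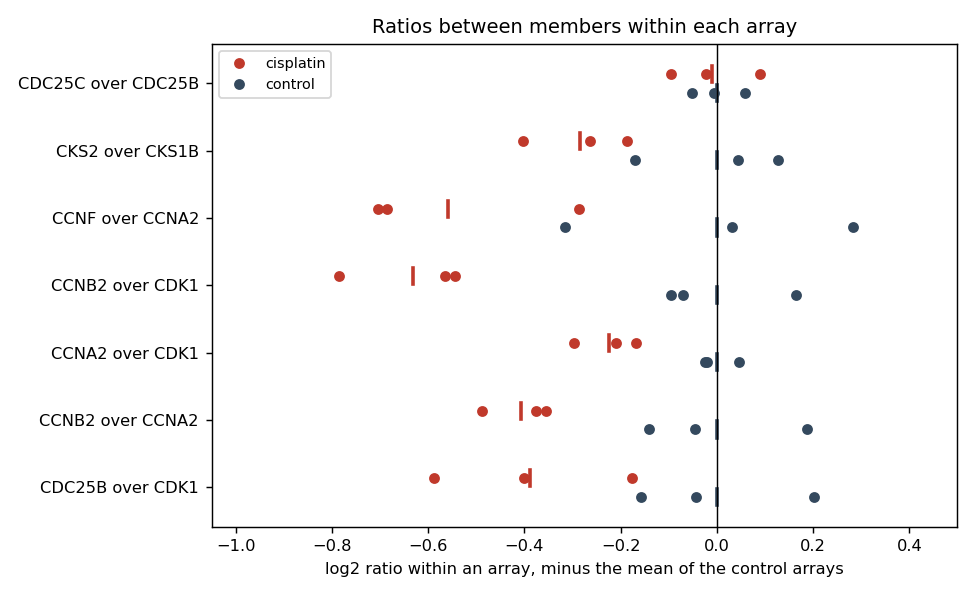
Log2 ratio between members on each array (points) and group means (ticks), minus the mean of the control arrays. CDC25C over CDC25B overlaps between the groups, while CCNB2 over CDK1 differs by -0.63 with all 3 cisplatin arrays below all 3 controls.

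Across arrays of a group the members stayed close to their group means. The median deviation over the 8 genes was -0.02, -0.02 and 0.07 on cisplatin 1 to 3 and -0.02, 0.06 and -0.0044 on control 1 to 3, on the log2 scale. Relative to the control mean, the median over the members was -0.36, -0.34 and -0.24 on the cisplatin arrays. All 3 were thus lower, cisplatin 3 least, and all 8 genes lay above their group mean on control 2, the control array whose median over all tested genes was also highest (0.05 above its group). The SD within groups of the single probe sets ran from 0.06 to 0.15.

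The genes around CDK1 were taken from lists of regulators, each gene by its brightest tested probe set. Of 24 tested genes in the list of CDK1 phosphorylation and inhibition, 2 rose, 1 fell and 21 did not pass, with a median log2 difference of -0.0015 (-0.08 without control 1 and 0.07 without control 2). Over all tested probe sets 0.213% passed on the higher side and 0.0762% on the lower. CDKN1A, the p21 inhibitor of cyclin-dependent kinases, read 1467, 1370.3 and 1429 after cisplatin against 249, 281 and 241 in control cells and rose by 2.42 on the log2 scale (adjusted p = 4.74e-06 in limma). GADD45A, a growth arrest protein reported to bind CDK1, read 228, 157 and 246 after cisplatin against 65.9, 85.8 and 92.8 in control cells and rose by 1.24 (adjusted p = 0.0333). It passed without control 1 or cisplatin 2 and did not pass without any of the other 4 arrays, one at a time (limma adjusted p of 0.0270 to 0.235 over the 6 fits), and it did not pass with arrays centred on their median (adjusted p = 0.0665) or without the filter (adjusted p = 0.0873). AURKA, the kinase that activates PLK1 ahead of CDK1, read 778, 802 and 886 after cisplatin against 1406, 1309 and 1386 in control cells and fell by 0.73 (adjusted p = 0.00870). It did not pass without control 2, control 3 or cisplatin 1 (limma adjusted p of 0.0147 to 0.0598 over the 6 fits). CDKN1A and GADD45A were thus higher on every cisplatin array than on any control, as were 7.42% of all tested probe sets. AURKA was lower on every one, as were 3.57%. Other tested CDKN1 and GADD45 genes did not follow. The groups overlapped in CDKN1B (log2 -0.0078), CDKN1C (0.04), GADD45B (0.09) and GADD45G (0.10). CDKN3, also on the list, was lower without overlap (log2 -0.41). Over the whole list the groups did not overlap in 3 genes on the lower and 3 on the higher side.

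In the list of cyclin destruction, which holds the anaphase-promoting complex, its partners and the SCF subunits, 0 of 21 tested genes passed in limma, and the unadjusted p was below 0.05 for 4, all on the lower side, where 1.63% of all tested probe sets reached it (3.4% on the higher side). All 4 had their cisplatin arrays below the controls, as did 3.57% of all tested probe sets, and 18 of the 21 were lower, beside 39.5% of all. The median log2 difference was -0.09, and it was -0.047 without control 2 and -0.14 without control 1. PTTG1, the securin that inhibits separase, averaged 1329 ± 59.7 in cisplatin and 1745 ± 27.9 in control cells (log2 -0.39). CDC20, the activator of the complex in mitosis, averaged 322 ± 38.2 in cisplatin and 546 ± 89.4 in control cells (log2 -0.74).

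Of 30 tested genes of the mitotic spindle and chromosomes 0 passed in limma, the unadjusted p was below 0.05 for 8, all of them lower (1.63% of all tested probe sets), and 24 were lower in all (39.5% of all tested probe sets). The median was -0.26, and it was -0.14 without control 3, -0.17 without control 2 and -0.39 without control 1. KIF20A, a kinesin of cytokinesis, averaged 449 ± 26.6 in cisplatin and 672 ± 17.5 in control cells (log2 -0.57). TPX2, which activates AURKA on the spindle, averaged 552 ± 30.1 in cisplatin and 764 ± 60.4 in control cells (log2 -0.46). Neither list was tested as a set.

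Of the other cyclins and CDKs 15 of 20 tested genes were higher, beside 60.5% of all tested probe sets. The median log2 difference was 0.08, beside 0.04 over all. Without control 1 both were lower, at 0.023 for the list and 0.017 over all, and without control 3 the list had 0.049 and all tested probe sets 0.048. Of the 20 genes 1 rose and 19 did not pass, where 0.213% of all tested probe sets passed on the higher side. CCNG1, which encodes cyclin G1, a p53 target, read 972, 819 and 930.1 after cisplatin and 462, 570.1 and 546 in control cells, a rise of 0.77 (adjusted p = 0.0294 in limma). It passed without control 1 (adjusted p = 0.0280 in limma) and did not pass without any of the other 5 arrays, one at a time (up to 0.228). Of 15 tested genes in the G2/M transcription list, which holds subunits of NF-Y, the E2F and RB families and the MuvB complex, 0 passed in limma, with 0 also below an unadjusted p of 0.05. Its median was 0.0050 (-0.03 to 0.04 without 1 array), and the lowest unadjusted p were those of RBL2 (log2 0.24), a pocket protein of the DREAM complex, and RB1 (log2 0.37, a dim probe set with means of 32.9 in cisplatin and 23.2 in control cells). Both values moved with single arrays. RBL2 was 0.042 without control 1 and 0.12 without cisplatin 1, and RB1 was 0.11 without control 1, 0.65 without control 2 and 0.63 without cisplatin 2.

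**Figure D5:**
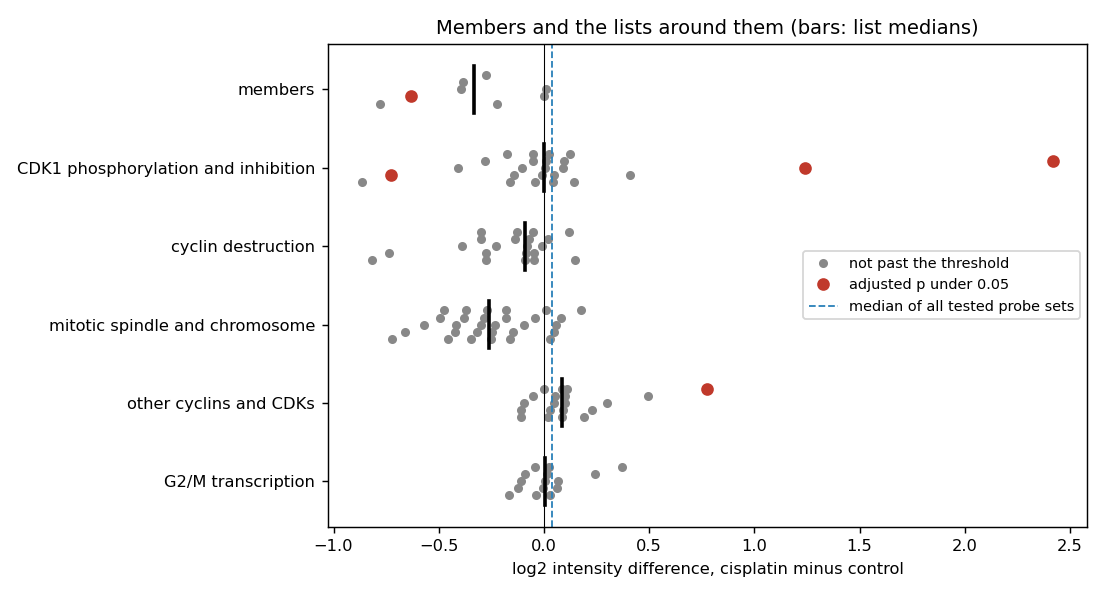
Log2 difference, cisplatin minus control, of each tested gene of the members and of 5 lists (points), with list medians (bars), genes past an adjusted p of 0.05 in red, and the median of all tested probe sets (dashed). CDKN1A (2.42) and GADD45A (1.24) stand at the right of the regulator list, and the medians of the members (-0.33) and of the spindle list (-0.26) lie left of 0.

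Likeness to the members was measured over the 6 arrays as the mean absolute distance between a gene's log2 values, minus the mean of its controls, and the median of the same over the 8 members. The 5 nearest of the other tested genes were UBE2C (0.02), MCM3 (0.03), RACGAP1 (0.04), INPP5A (0.05) and SND1 (0.05). UBE2C, the ubiquitin-conjugating enzyme that feeds the anaphase-promoting complex, averaged 878 ± 40.0 in cisplatin and 1082 ± 38.4 in control cells. RACGAP1, a protein of cytokinesis, averaged 787 ± 56.7 in cisplatin and 1021 ± 39.6 in control cells. Of the members CDC25C lay nearest to their median profile (0.05) and CCNF farthest (0.28). The distance ranks size and direction together, so genes with a like difference stand near each other whatever they encode.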

How the data were processed

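Total RNA of 3 cisplatin-treated and 3 control A549 cultures was measured on 6 arrays. The authors deposited 1 linear intensity for each probe set and array, from -512 to 9153, with 723 of 52758 (1.37%) at or below 0. What summarised and scaled them is not given in the sources used here. Precision is limited by the number of arrays.

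Negative values were raised to 0, an offset of 11.8 (the 10th percentile of the positive values) was added and log2 taken. Arrays were used as deposited, since their 75th percentiles spanned 0.15. The 47 control probe sets were left out, and the 6559 of 8746 whose average log2 value reached the 25th percentile were fitted in limma 3.58.1 (R 4.3.3; lmFit, eBayes with an intensity trend, two-sided, Benjamini-Hochberg over all 6559, threshold 0.05). Residual degrees of freedom were 4 and prior ones 5.54. The offset makes log2 differences of dim probe sets smaller. The step was tested on simulated data. An exact test of 3 against 3 cannot go below 0.1 and was not used.

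Gene names came from the platform's probe table (7840 probe sets with 1 symbol, 388 with several, 518 with none). Promoters came from RefSeq (GRCh38.p14). Figures used matplotlib 3.10.9.

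The members, the lists and the naming rule were chosen with earlier results of these data known. The rule named all members, CDKN1A and GAPDH, up to 4 called genes per list or else the 2 lowest p, and the 5 genes most like the members. GAPDH had a log2 difference of -0.04 (SE 0.06), which was 0.0091 without control 2. ACTB, also in the rule, had no probe set of its symbol alone other than array controls and was not tested. PRC1, KIF4A, H3C3, JPT1 and ZWINT, in the closing section, were added after their values were seen. Alternatives covered scaling, offset, filter, variance prior, array weights, the replicate number as a block and left-out arrays. The labels do not say how each replicate was assigned to an experiment.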

Additional observations from a re-analysis of the deposited data

How the results depend on the processing

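All 7 member probe sets that were lower after cisplatin stayed lower under the 17 alternative fits, while CDK1 and CKS1B, both near 0, had the opposite sign in 5 and 6 of them. Of 153 member values 151 moved by less than 1 SD between replicates. The median over the members was -0.40 with arrays centred on their median, which gave -0.03 over all tested probe sets, against 0.04 as deposited, and -0.37 to -0.29 in the fits without 1 array. Against 1 member probe set past the threshold, 2 passed with array weights (CCNB2 and CCNF), 0 to 1 without 1 array, and 0 with arrays centred on their median, without the filter, without the intensity trend, with the replicate block, and without control 1 and cisplatin 2 together. CCNB2 passed in 7 of the 17, with adjusted p from 0.0138 to 0.252. Over all probe sets 19 passed, against 11 with centred arrays, 8 without the intensity trend, 44 with array weights, 5 with the replicate block and 6 to 18 without 1 array, 18 being without control 1 and the other 5 fits giving 6 to 11. The list of CDK1 phosphorylation and inhibition had 3 genes past the threshold, against 5 with array weights, 2 with centred arrays, 2 without the filter, 1 without the intensity trend, 1 with the replicate block and 1 to 4 without 1 array (1 without control 2, control 3 or cisplatin 1), and its median was -0.10 with array weights. CDKN1A passed in all 17. The other cyclins and CDKs had 1, against 0 with centred arrays, without the filter, without the intensity trend and with the replicate block, and 0 to 1 without 1 array. The list of cyclin destruction had 0, against 1 with quantile normalization (PTTG1) and 2 with array weights (PTTG1 and CDC20), and the spindle list 0, against 1 with the filter at the 50th percentile (KIF20A) and 2 with array weights. The median of the G2/M transcription list was -0.067 with centred arrays. The cause of these changes was not tested. The alternatives for the lists and the genes outside the members were added after the data were seen.

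The deviations of arrays with equal replicate numbers correlated at -0.56, -0.31 and -0.12, and for 0 of 6 arrays was the closest match in the other group the one of equal number, so the numbers were not taken as pairs. The 7 ratios between members kept their values within the replicate spread under all offsets and without each array. The log2 difference of CCNF ran from -0.85 without an offset to -0.59 with 5 times the offset.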

Other observations

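Promoter layout was also set against the differences of all tested genes. Both boxes, a CHR and a CCAAT box anywhere in the window, were found in 303 of the 4790 tested genes with a RefSeq window. Their median log2 difference was 0.02, with 46.9% lower after cisplatin, beside 0.04 and 39.5% over all 4790. With limma 1 of the 303 passed, CCNB2, on the lower side, beside 4 lower and 10 higher of the 4790. CCNB2 is a member, and the members were chosen with this contrast known. Without the members 297 genes remained, of which 0 passed and 46.5% were lower, with a median of 0.02.

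A CCAAT box starting 20 to 35 bases before a CHR that lies before the transcript start was found in 34 of those genes, 5 of them members. The other 29 had a median log2 difference of -0.10, with 19 lower, and 0 passed in limma. Their cisplatin arrays all lay below the controls in 5 genes, or 17.2%, against 3.38% over the 4790. These were CDC20 (-0.74), PRC1 (-0.49), a protein that bundles spindle microtubules, H3C3 (-0.35), a histone gene, KIF4A (-0.25), a chromosome-bound kinesin, and JPT1 (-0.23). In 1 gene, ZWINT (0.18), a kinetochore protein, all cisplatin arrays lay above the controls, or 3.45% of the 29, against 7.75% over the 4790. The spacing was chosen after the promoters of the members had been read, and the sets were not tested.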
